A study of Mus musculus with 9 samples.

Results

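The claudin family was followed in mouse colon through 10 genes given by symbol: Cldn1, Cldn2, Cldn3, Cldn4, Cldn5, Cldn7, Cldn8, Cldn12, Cldn15 and Cldn23. All 10 were matched by symbol to 1 row each of the 54491 rows of the deposited table, and all 10 were among the 17907 genes that reached at least 0.5 FPKM in at least 3 libraries and were tested. FPKM divides a gene's fragment count by its length and by the library's size, so that levels of different genes can be set side by side. The animals were 45 C57BL/6 mice, 15 per group, aged 6 weeks at the start and sampled on postnatal day 98. Colon RNA gave 9 libraries: control replicates 1, 2 and 3, replicates 1, 2 and 4 of mice fed a high-fat diet (HFD), and replicates 1, 3 and 4 of mice fed HFD and dosed by gavage (a stomach tube) with Papillibacter cinnamivorans, an intestinal bacterium. The diet of the control group is not named in the labels, gavage is named for the third group alone, and the stretch of colon that was taken is not given. The bacterium and the gavage procedure therefore cannot be told apart.

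Claudins are small membrane proteins that make up the strands of the tight junction, the belt that joins neighbouring epithelial cells near the gut lumen. Sealing claudins narrow the path between cells, whereas pore-forming claudins line channels that let small ions and water through. In the gut, Cldn1, Cldn3, Cldn4, Cldn5, Cldn7 and Cldn8 are usually counted as sealing, and Cldn2 and Cldn15 as pores for cations such as sodium. Cldn12 has been linked to calcium permeability, and Cldn23 is a claudin of differentiated intestinal epithelium, so these were kept apart from both classes.

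Sequencing depth relative to control replicate 1, read from the steps between low values, ranged from 0.822 to 1.103, and total depth is unknown. Epithelial genes were abundant in all 9 libraries, with a summed level of 4957 to 9323 FPKM in control, 5288 to 6000 in HFD and 4822 to 5797 in HFD with the bacterium over 14 pan-epithelial genes. Control replicate 1 stood apart in smooth muscle genes, which summed to 6921 FPKM there and to 1337 to 3217 FPKM in the other 8 libraries. Of 10 genes of squamous anal epithelium, 9 stayed below 1 FPKM in every library, and Krt6a and Sprr3 were at 0 in all of them. The libraries are not stated to come from separate mice, so p-values measure the spread between libraries.

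Cldn3 and Cldn7 made up most of the claudin RNA in each library. Together they took 78.5%, 84.3% and 87.1% of the summed FPKM of the 10 genes in control, 78.6%, 77.7% and 76.0% in HFD, and 84.7%, 75.1% and 82.7% in HFD with the bacterium. The groups overlapped in this share. The order below this pair differed between groups. In control it ran from Cldn4 (73.3 ± 24.6 FPKM, mean ± SD, n = 3 libraries here and below) through Cldn23 (58.5 ± 13.1) and Cldn15 (47.9 ± 2.39) to Cldn2 (18.4 ± 5.70), Cldn12 (12.45 ± 1.78), Cldn5 (10.9 ± 4.87), Cldn8 (8.10 ± 2.69) and Cldn1 (0.462 ± 0.235). Neighbours in that order overlapped in range, except Cldn15 with Cldn2 and Cldn8 with Cldn1. In HFD, Cldn8 stood at the third place in all 3 libraries with 67.2 ± 5.51 FPKM. Cldn2 (32.7 ± 1.38), Cldn23 (27.4 ± 2.69), Cldn15 (20.2 ± 1.55) and Cldn12 (19.2 ± 0.498) came next, and Cldn4 (13.8 ± 3.02) was at the eighth place in all 3. Among these, Cldn15 and Cldn12 overlapped in range. In HFD with the bacterium, Cldn23 (41.0 ± 4.60), Cldn15 (36.7 ± 18.0), Cldn4 (35.6 ± 9.14) and Cldn2 (25.4 ± 19.8) overlapped. Cldn8 (13.2 ± 2.31) and Cldn12 (12.95 ± 1.92) overlapped each other and the lower values of Cldn2.

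**Figure D1:**
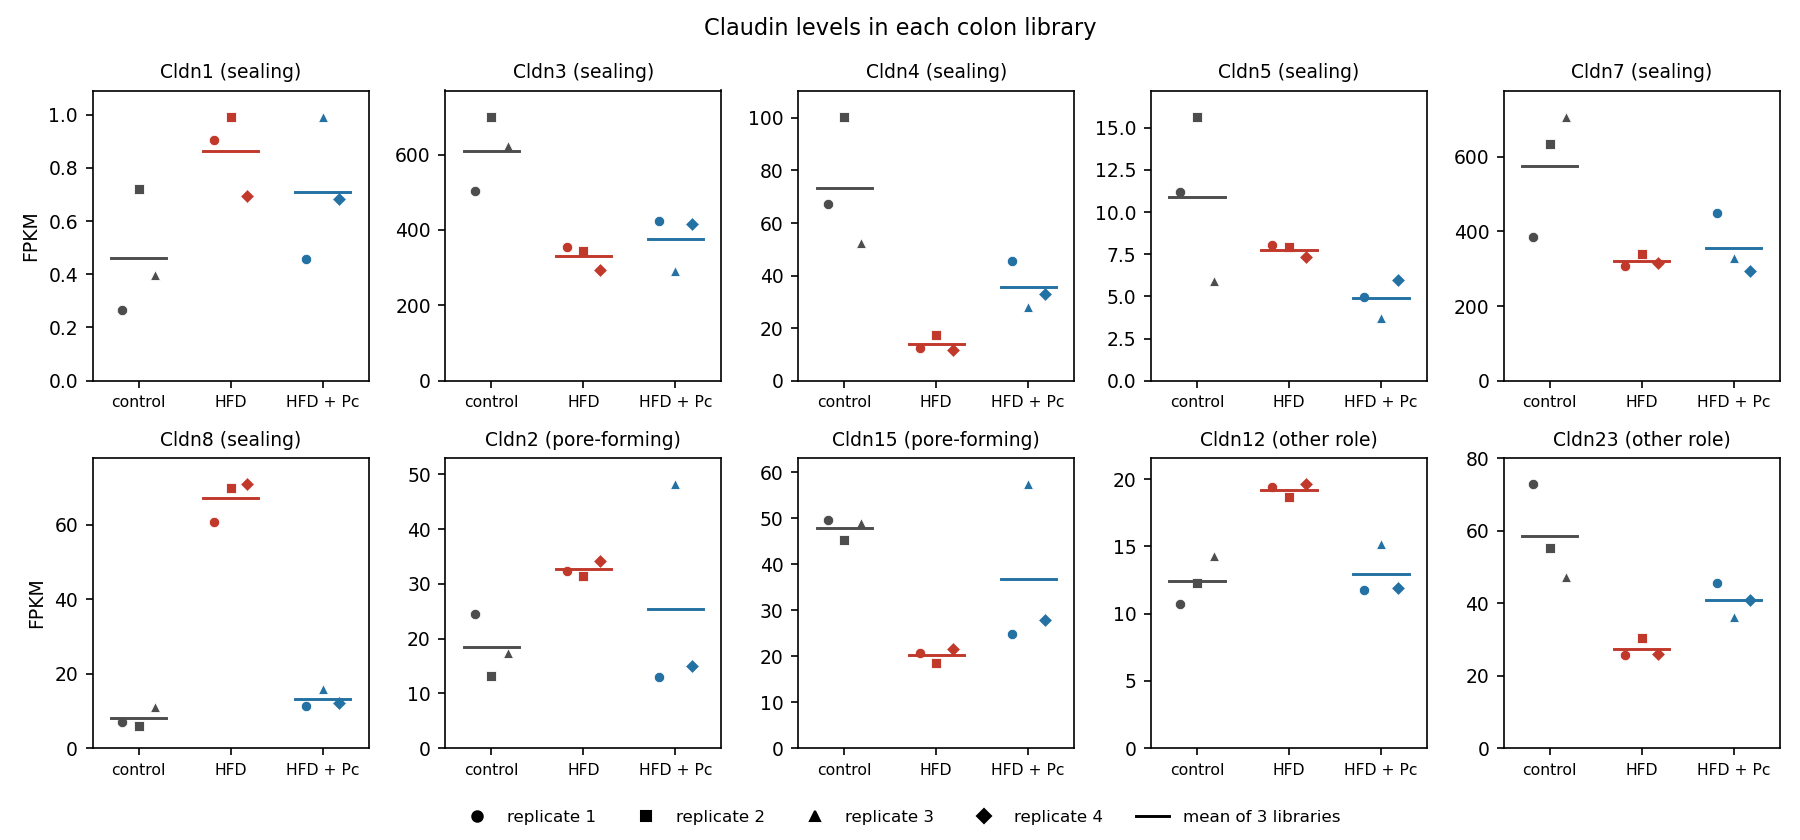
FPKM of the 10 claudin genes (y axes, each starting at 0) in the control, HFD and HFD with P. cinnamivorans (HFD + Pc) groups. Each point is a library, its shape gives the replicate number and lines are group means; Cldn8 was at 60.9 to 70.9 FPKM in HFD and at 15.8 FPKM or less in the other libraries, and replicate 3 of HFD + Pc lay apart in Cldn2 and Cldn15.

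HFD was set against control, and by their labels these groups differ in the diet. They also differed in genes that mark position along the gut, such as Hoxb13 (means 127 and 2.63 FPKM) and Cdx2 (8.10 and 112 FPKM). Diet and position of the pieces therefore cannot be told apart here. Sealing claudins went in both directions. Cldn8, a sealing claudin of the distal nephron and colon, read 7.14, 6.02 and 11.1 in the control libraries and 60.9, 69.9 and 70.9 in the HFD libraries (FPKM). Each HFD library was thus above every control library, and the mean was 8.30-fold higher (log2 difference 2.94, SE 0.21, limma adjusted p = 7.8e-05; differences here and below are of log2(FPKM + 1), so changes of low genes come out too small). Cldn4, a claudin that can bind the enterotoxin of Clostridium perfringens, read 67.2, 100.4 and 52.4 in the control libraries and 12.3, 17.25 and 11.8 in the HFD libraries (FPKM). The control mean was 5.32-fold higher, and the groups did not overlap (log2 difference -2.30, SE 0.27, limma adjusted p = 0.00078). Cldn3, which binds the same toxin, lies next to Cldn4 on chromosome 5 with 0 genes between them in RefSeq. Cldn3 read 503, 700 and 623 in the control libraries and 354, 344 and 295 in the HFD libraries (FPKM). It fell by 0.87 (SE 0.21, limma adjusted p = 0.021), and its groups did not overlap.

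The other sealing claudins were not called. Cldn7, which is also placed along the sides of epithelial cells where it binds Epcam, read 386, 635 and 707 in the control libraries and 307, 338 and 314 in the HFD libraries (FPKM). Its groups did not overlap, but the spread within control was wide (log2 difference -0.80, 95% interval -1.39 to -0.22, limma adjusted p = 0.059). Cldn5, best known from the junctions of blood vessel endothelium, read 11.2, 15.65 and 5.92 in the control libraries and 8.02, 7.91 and 7.34 in the HFD libraries (FPKM). The HFD values lay inside the control range (log2 difference -0.36, 95% interval -1.01 to 0.30, limma adjusted p = 0.42). In the same libraries 12 endothelial genes summed to 53.8 to 78.4 FPKM in control and 69.9 to 75.8 FPKM in HFD, and Cldn5 was 15.5% ± 4.47 of that sum in control and 10.7% ± 0.313 in HFD. Cldn1 was low throughout, at 0.267 to 0.722 FPKM in control and 0.696 to 0.99 FPKM in HFD (log2 difference 0.36, 95% interval -0.03 to 0.74, limma adjusted p = 0.17).

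The pore-forming claudins had opposite signs. Cldn15, a cation pore that is most abundant in the small intestine, read 49.6, 45.2 and 48.8 in the control libraries and 20.6, 18.5 and 21.6 in the HFD libraries (FPKM). The values within each group were close and the control mean was 2.37-fold higher (log2 difference -1.20, SE 0.27, limma adjusted p = 0.016). Cldn2, a cation and water pore of leaky epithelia and of crypts, read 24.5, 13.2 and 17.4 in the control libraries and 32.4, 31.5 and 34.2 in the HFD libraries (FPKM). All HFD values were above all control values, yet the difference was not called (log2 difference 0.84, 95% interval -0.14 to 1.82, limma adjusted p = 0.21). The spread in this test is estimated over all 9 libraries. Without replicate 3 of HFD with the bacterium, which lay apart in Cldn2, the adjusted p was 0.027, and with the 2 compared groups alone it was 0.042. Of the genes outside both classes, Cldn23 fell from 72.8, 55.2 and 47.4 FPKM to 25.7, 30.5 and 26.0 FPKM, a log2 difference of -1.05 (SE 0.17, limma adjusted p = 0.0041). Cldn12 rose from 10.7, 12.3 and 14.3 FPKM to 19.4, 18.7 and 19.6 FPKM, a log2 difference of 0.60 (SE 0.14, limma adjusted p = 0.018).

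In all, 2 of the 10 claudins rose (Cldn8, Cldn12) and 4 fell (Cldn3, Cldn4, Cldn15, Cldn23), where 19.7% of all tested genes were called in HFD against control, 10.6% higher and 9.11% lower. By class, 1 of 6 sealing claudins rose and 2 fell, and 0 of 2 pore-forming claudins rose and 1 fell. The median log2 difference was -0.58 over the 10 claudins and 0.00 over all tested genes. Groups did not overlap for 8 of the 10, against 42.1% of all tested genes. Cldn8 and Cldn4 were called under each of 21 alternative settings (adjusted p at most 0.0023 and 0.0056). Cldn3, Cldn15 and Cldn12 kept their signs but lost their calls in some of the 9 fits that left out 1 library. In these fits the log2 difference was -1.25 to -1.146 for Cldn15, 0.503 to 0.694 for Cldn12 and -0.763 or lower for Cldn3. Calls over all genes also went down, from 3535 to 1945, 2123 and 1857 without HFD replicate 1, 2 or 4. Without control replicate 2 or 3 or any 1 of the HFD replicates 1, 2 and 4, Cldn3 had an adjusted p of 0.077, 0.053, 0.059, 0.059 and 0.087. For Cldn15 it was 0.051 and 0.057 without HFD replicate 1 or 2, and for Cldn12 it was 0.058, 0.064, 0.053 and 0.068 without control replicate 2 or HFD replicate 1, 2 or 4. Without control replicate 1 Cldn7 was called (0.006), and without control replicate 3 Cldn5 was (0.048).

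Of the 14 pan-epithelial genes, 3 fell in HFD (Cdx2, Vil1 and Ezr), 1 rose (Grhl2) and 10 were not called. The mean log2(FPKM + 1) of the pan-epithelial genes other than Cdx2 was 7.48, 7.89 and 8.08 in control and 7.45, 7.56 and 7.44 in HFD, so the groups overlapped. After each library was centred on these genes, a setting added after the data had been seen, 3 claudins were called: Cldn8, Cldn4 and Cldn12 (adjusted p 1.2e-05, 0.0015 and 0.003), while Cldn3, Cldn15 and Cldn23 were not (0.10, 0.054 and 0.079). With Cdx2 kept among the centring genes, 4 claudins were called higher in HFD (Cldn1, Cldn2, Cldn8, Cldn12) and 1 lower (Cldn4), against 2 higher and 4 lower without centring. Under that setting 8028 of all tested genes were called, 94.8% of them higher, and the median of all genes was 0.57, so the claudin count there is read against that shift. In pieces of whole tissue, fewer epithelial cells and less RNA of a gene in each cell cannot be told apart. Immune genes moved with the group as well: 10 B and plasma cell genes summed to 929 to 1183 FPKM in HFD and 115 to 193 FPKM in control, and 9 myeloid genes to 587 to 637 against 205 to 256 FPKM. Most of the B and plasma cell sum was Jchain, at 799 to 1023 FPKM in HFD and 95.6 to 184 FPKM in control. The part of the immune genes in the claudin differences was not tested.

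**Figure D2:**
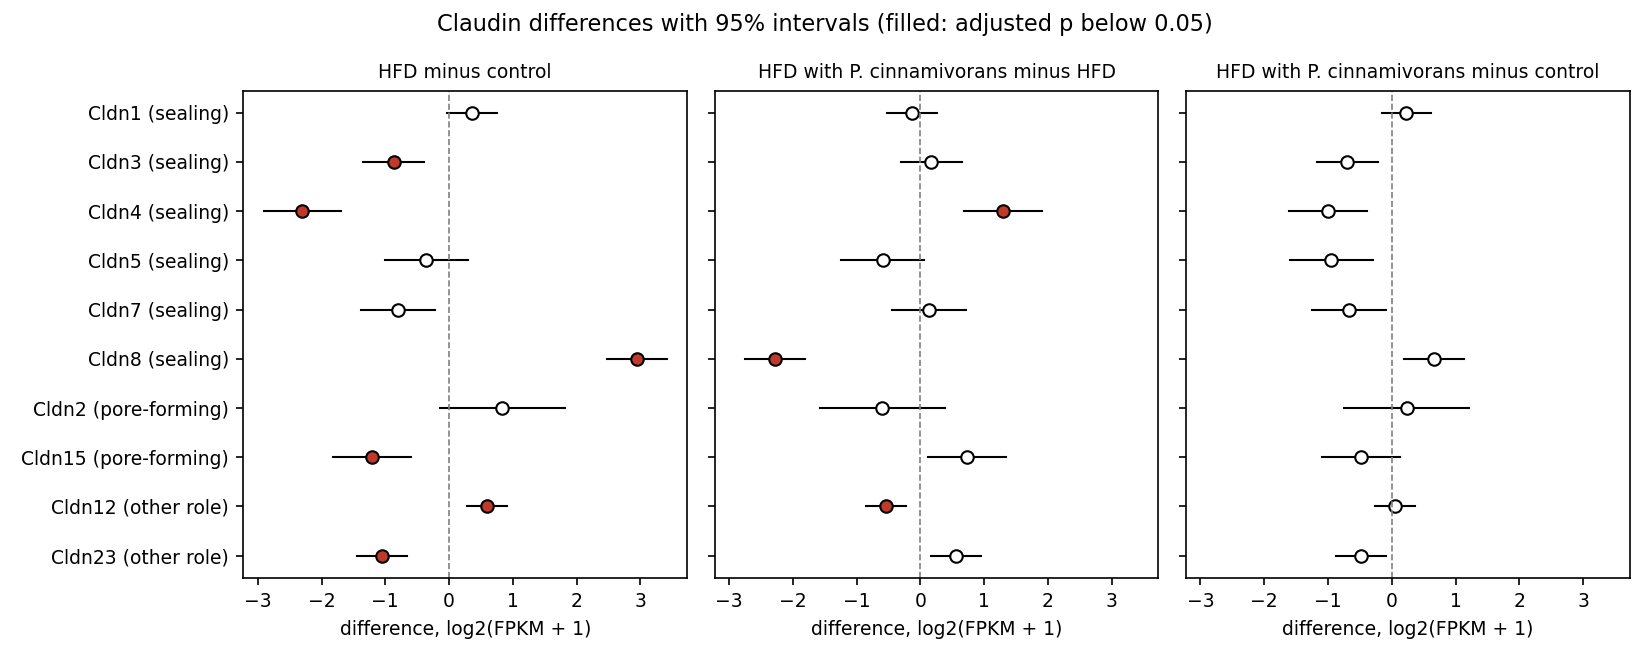
Differences of the 10 claudins on the log2(FPKM + 1) scale (x axis) in the 3 comparisons, with 95% intervals from limma over 9 libraries; filled points have an adjusted p below 0.05 over all tested genes. Cldn8 (2.94) and Cldn4 (-2.30) lay farthest from 0 in HFD minus control, and both had the opposite sign in HFD with the bacterium minus HFD (-2.28 and 1.30).

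Ratios within a library do not depend on how that library was scaled. Cldn8 was below Cldn4 in control, at 0.106, 0.0600 and 0.2125 of the Cldn4 level, and above it in HFD, at 4.96, 4.05 and 6.01 times. In HFD with the bacterium it was again below, at 0.2505, 0.566 and 0.370. The HFD libraries were thus apart from the other 6 by more than the spread inside any group. The pores changed order in the same libraries. Cldn2 was at 0.494, 0.293 and 0.357 of the Cldn15 level in control, at 1.57, 1.70 and 1.58 times in HFD and at 0.519, 0.840 and 0.541 with the bacterium. Cldn2 exceeded Cldn15 in the 3 HFD libraries and in none of the other 6. These ratios were examined with the levels already known and are given without a test.

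The balance of pores to seals was less distinct than these pairs. The summed FPKM of Cldn2 and Cldn15 was 7.61%, 4.01% and 4.74% of the summed FPKM of the 6 sealing claudins in control, 7.14%, 6.43% and 7.97% in HFD, and 4.04%, 15.8% and 5.63% with the bacterium. The groups overlapped. The denominator is mostly Cldn3 and Cldn7. The sealing sum was 975, 1458 and 1399 FPKM in control, 742, 778 and 699.5 FPKM in HFD and 936, 667 and 760.4 FPKM with the bacterium, while the pore sum was 58.4 to 74.2, 49.99 to 55.7 and 37.8 to 105.5 FPKM.

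**Figure D3:**
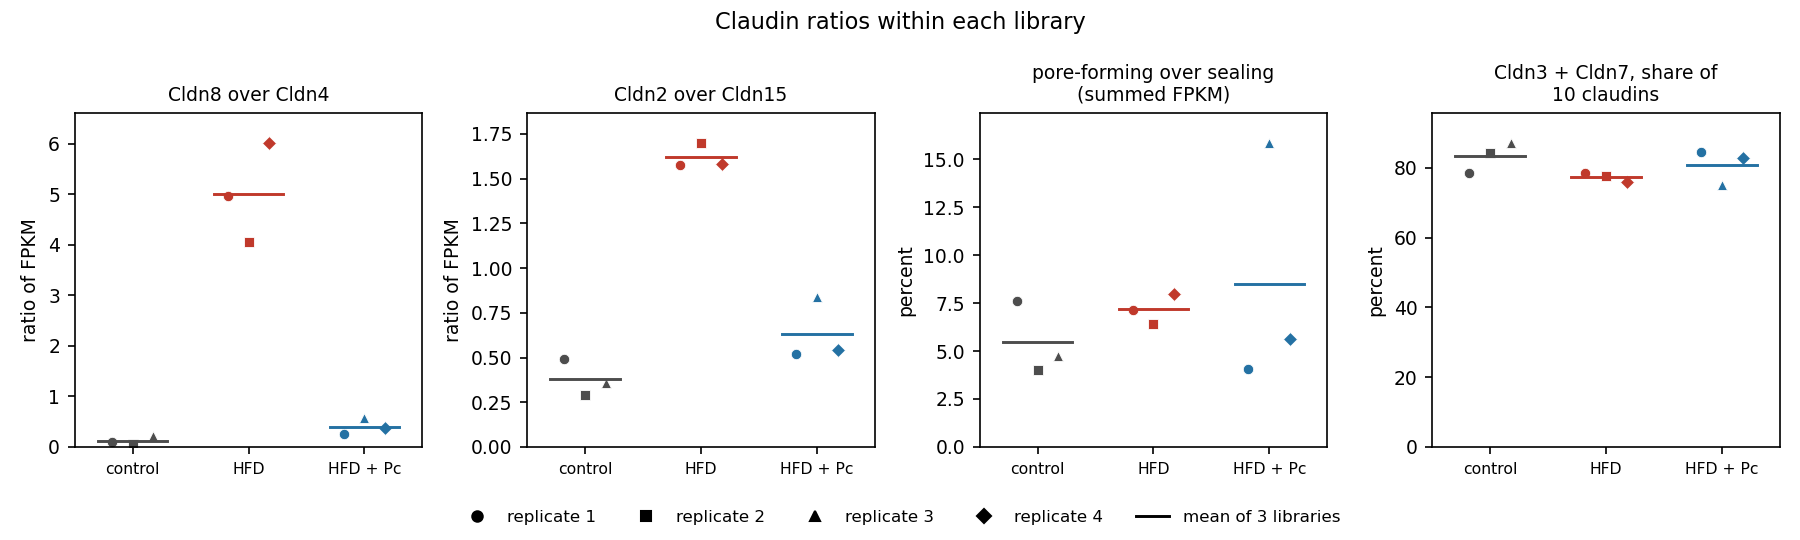
Ratios and shares of claudin FPKM within each library (y axes, each starting at 0) by group; points are libraries, shapes give replicate numbers and lines are means of 3. Cldn8 over Cldn4 and Cldn2 over Cldn15 set the 3 HFD libraries apart, whereas the pore-forming over sealing share overlapped between groups.

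HFD with P. cinnamivorans was then set beside HFD, and by their labels these groups differ in the gavage with the bacterium. They also differed in genes that mark position along the gut, such as Hoxb13 (means 0.809 and 127 FPKM) and Cdx2 (68.85 and 8.10 FPKM). Bacterium and position of the pieces therefore cannot be told apart here. This comparison shares the HFD libraries with the one above, so that opposite signs between both are partly built in. Cldn8 was at 11.45, 15.8 and 12.3 FPKM with the bacterium against 60.9 to 70.9 in HFD. It fell by 2.28 (SE 0.21, limma adjusted p = 0.00029), the HFD mean being 5.10-fold higher. Cldn4 was at 45.7, 27.9 and 33.1 FPKM against 11.8 to 17.25 in HFD. It rose by 1.30 (SE 0.27, limma adjusted p = 0.015), with a mean 2.58-fold higher and no overlap. Cldn12 fell by 0.54 (SE 0.14, limma adjusted p = 0.036), from 18.7 to 19.6 FPKM in HFD to 11.8, 15.2 and 11.9 FPKM. Its 3 values with the bacterium were all below the HFD range.

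Of the 10 claudins, 1 rose and 2 fell in this comparison, where 12.1% of all tested genes were called, 4.54% higher and 7.60% lower. The remaining 7 were not called. Immune genes moved here too: the B and plasma cell genes summed to 204 to 423 FPKM with the bacterium, with 9 of 10 called lower than in HFD, and the myeloid genes to 163 to 244 FPKM, with 8 of 9 called lower. Jchain alone was at 193 to 403 FPKM with the bacterium. Ms4a1, which was called, and Mzb1, which was not, passed the filter on low values only with their HFD libraries. That favours a lower call with the bacterium. The part of the immune genes in these differences was not tested. Cldn23, at 45.5, 36.3 and 41.0 FPKM, lay above each HFD library (log2 difference 0.56, 95% interval 0.17 to 0.95, limma adjusted p = 0.07). Cldn3 was at 425, 290 and 415 FPKM and Cldn7 at 448, 328 and 293 FPKM, both overlapping HFD, with 95% intervals of -0.30 to 0.65 and -0.45 to 0.72. Cldn5 was at 4.95, 3.73 and 5.95 FPKM, below the 3 HFD libraries (log2 difference -0.59, 95% interval -1.25 to 0.06), while the endothelial sum was 39.2 to 65.1 FPKM with the bacterium. Cldn1 was at 0.458 to 0.992 FPKM (log2 difference -0.13, 95% interval -0.52 to 0.25).

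The pores split the group with the bacterium. Cldn15 measured 24.9, 57.3 and 27.8 FPKM and Cldn2 12.9, 48.2 and 15.0 FPKM in replicates 1, 3 and 4. Replicate 3 was the highest of all 9 libraries in both genes, and replicates 1 and 4 were close to each other. Cldn15 lay above the HFD range in all 3 (log2 difference 0.73, 95% interval 0.12 to 1.34, limma adjusted p = 0.12). Cldn2 overlapped HFD (log2 difference -0.60, 95% interval -1.58 to 0.38, limma adjusted p = 0.42). Without replicate 3, Cldn2 fell by 1.17 (limma adjusted p = 0.016), and Cldn15 had a log2 difference of 0.365 (limma adjusted p = 0.091). Cldn4 lost its call when HFD replicate 1 or 4 or bacterium group replicate 1 was left out (adjusted p 0.066, 0.059 and 0.058), and Cldn12 without control replicate 2, HFD replicate 1, 2 or 4, or replicate 1 or 4 of the bacterium group (0.059, 0.12, 0.10, 0.11, 0.13 and 0.12) or after centring on epithelial genes without Cdx2 (0.072), and Cldn23 was called without control replicate 1 (0.017). Groups did not overlap for 6 of the 10 claudins, against 39.0% of all tested genes. The median over the 10 was 0.00, and -0.01 over all tested genes.

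Mice given both diet and bacterium were also compared with control. With limma, 0 of the 10 claudins were called, where 1.11% of all tested genes were (0.262% higher and 0.843% lower), and 6 of the 10 had an unadjusted p below 0.05. Cldn4, at 27.9 to 45.7 FPKM against 52.4 to 100.4, lay below every control library (control mean 2.06-fold higher, 95% interval of the log2 difference -1.61 to -0.39, limma adjusted p = 0.094). Cldn8, at 11.45 to 15.8 against 6.02 to 11.1 FPKM, lay above every control library (log2 difference 0.67, 95% interval 0.19 to 1.14, limma adjusted p = 0.13). Cldn3 and Cldn23 also did not overlap, with log2 differences of -0.70 and -0.49 (limma adjusted p = 0.12 and 0.17). Non-overlap was seen for 4 of the 10 claudins and for 21.7% of all tested genes. Cldn12 was at 12.95 ± 1.92 against 12.45 ± 1.78 FPKM (log2 difference 0.05, 95% interval -0.26 to 0.37). Without control replicate 1, Cldn7 fell by 0.93 (limma adjusted p = 0.035) and Cldn3 by 0.83 (0.05), and without replicate 3 of the bacterium group Cldn15 fell by 0.84 (0.046), so the count depends on single libraries.

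The rest of the family was scarce. Of 22 further claudin genes found in the table, 2 passed the filter on low values, and all 22 together summed to 1.39 to 4.12 FPKM per library. Cldn14, a claudin that blocks cation passage in kidney and ear, was at 1.98, 2.51 and 3.03 FPKM in HFD, 1.02, 0.062 and 0.217 FPKM in control and 0.4705, 0.141 and 0.107 FPKM with the bacterium. It passed the filter through the HFD libraries, so that it could come out higher there but not lower (log2 difference 1.34 and then -1.50, limma adjusted p = 0.0072 and 0.0053). Cldn20 was at 0.704 to 1.43 FPKM in control and 0.087 to 0.488 FPKM in HFD (limma adjusted p = 0.054). Cldn18, the claudin of stomach and lung, and Cldn16, of the kidney, were at 0 in every library.

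Genes that work with claudins at the junction were taken as a list of 21 that were tested: Ocln, the tricellular and MARVEL proteins, the ZO scaffolds, JAM adhesion molecules and polarity proteins. In HFD against control 2 rose and 3 fell, a share near the 19.7% called over all tested genes. Lsr, a receptor that marks corners where 3 cells meet, was at 21.75, 20.8 and 23.1 FPKM in HFD and 3.28 to 5.92 FPKM in control, a log2 difference of 2.15 (SE 0.58, limma adjusted p = 0.032). Pard6b, a polarity protein, fell from 15.9 to 17.2 FPKM to 5.07 to 6.71 FPKM (log2 difference -1.35, limma adjusted p = 0.00023), and Crb3, a polarity protein of the apical membrane, fell by 0.83 (adjusted p = 0.0059). With the bacterium against HFD, 1 fell: Lsr, to 0.824, 11.3 and 2.25 FPKM in replicates 1, 3 and 4. Replicate 3 was again the highest of its group. Against control, 1 of 21 fell with the bacterium, namely Pard6b (log2 difference -0.93, limma adjusted p = 0.036). The scaffold Tjp1 (ZO-1) was at 16.4 ± 2.18, 17.8 ± 0.334 and 15.9 ± 1.82 FPKM in control, HFD and HFD with the bacterium, and Ocln was at 29.2 ± 8.66, 27.2 ± 1.48 and 27.1 ± 3.52 FPKM. Neither was called in any of the 3 comparisons.

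Of 13 tested genes for proteins that bind, cleave or turn over claudins, 1 rose and 1 fell in HFD, which is no more than the 19.7% called over all tested genes. Tmprss2, a membrane serine protease, rose from 17.7 to 32.8 FPKM to 66.85 to 75.4 FPKM, a log2 difference of 1.65 (SE 0.24, limma adjusted p = 0.0022). With the bacterium it was at 16.9 to 25.5 FPKM (log2 difference -1.70 against HFD, limma adjusted p = 0.0023). St14, the membrane protease matriptase, fell from 58.2 to 63.3 FPKM to 23.3 to 32.2 FPKM in HFD (log2 difference -1.09, limma adjusted p = 0.0039), and was at 23.1 to 33.8 FPKM with the bacterium, also below control (log2 difference -1.02, limma adjusted p = 0.041). Epcam, the partner of Cldn7, was at 835.5 ± 231 FPKM in control, 640.5 ± 46.85 in HFD and 536 ± 106 with the bacterium and was not called in any comparison.

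Several genes that mark position along the gut also set the 3 HFD libraries apart. Cdx2, a homeobox factor of intestinal identity, was at 73.2, 121 and 141 FPKM in control, 8.18, 6.66 and 9.45 FPKM in HFD and 72.0, 80.3 and 54.3 FPKM with the bacterium. Hoxb13, a homeobox gene of the hindmost gut, was at 118, 128 and 134 FPKM in HFD, at 7.73, 0.060 and 0.090 FPKM in control and at 0.227, 2.15 and 0.052 FPKM with the bacterium. The 12 posterior Hox genes summed to 280.5 to 301.5 FPKM in HFD, 12.2 to 71.9 FPKM in control and 27.0 to 34.6 FPKM with the bacterium, with Hoxc12 and Hoxc13 at 0 throughout. Hoxb13 and Hoxd13 made up most of the HFD sum. Of 8 that were tested, 5 rose in HFD against control, where 10.6% of all tested genes were called higher. Hoxa10 overlapped between these groups, and Hoxa11 was at 1.65 to 1.98 FPKM in HFD and 2.28 to 12.01 FPKM in control without being called. Hoxb13, Hoxd12 and Hoxd13 passed the filter on low values only with their HFD libraries, which favours a higher call there. Hoxc10 and Hoxc11, listed at 0 in HFD, did not pass it and were not tested. The 7 genes from Hoxb2 to Hoxb8 summed to 4.645 to 5.51, 25.6 to 131 and 62.8 to 100.2 FPKM in HFD, control and HFD with the bacterium. A list of 10 small intestine enterocyte genes, led by Fabp2 and Apoa1, summed to 50 to 66.2 FPKM in HFD, 824 to 3382 FPKM in control and 1109 to 1828 FPKM with the bacterium. Most of that sum was Fabp2, at 743 to 2458 FPKM in control. Of 9 tested genes 2 fell in HFD (Fabp2 and Alpi), where 9.11% of all tested genes were called lower. Anpep was higher in HFD than in 2 of the 3 control libraries, and Rbp2 overlapped between HFD and HFD with the bacterium. Control replicate 1, the control library with the highest posterior sum and the lowest Hoxb2 to Hoxb8 sum, was the lowest of the 3 in Cldn3 (503 FPKM), Cldn7 (386) and Cldn12 (10.7), the highest in Cldn2 (24.5), Cldn15 (49.6) and Cldn23 (72.8), and between the others in Cldn8 (7.14) and Cldn4 (67.2). For Cldn3, Cldn7 and Cldn2 it was thus the control library nearest to HFD, and for Cldn12, Cldn15 and Cldn23 the farthest. The same library had a smooth muscle sum of 6921 FPKM, against 1886 and 1337 FPKM in control replicates 2 and 3. Its pan-epithelial sum was 4957 FPKM, against 8264 and 9323 FPKM. The part of this tissue make-up in its claudin levels was not tested. Neither diet nor bacterium can be told apart from position of the pieces by these labels, and the part of position in the claudin differences was not tested.

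**Figure D4:**
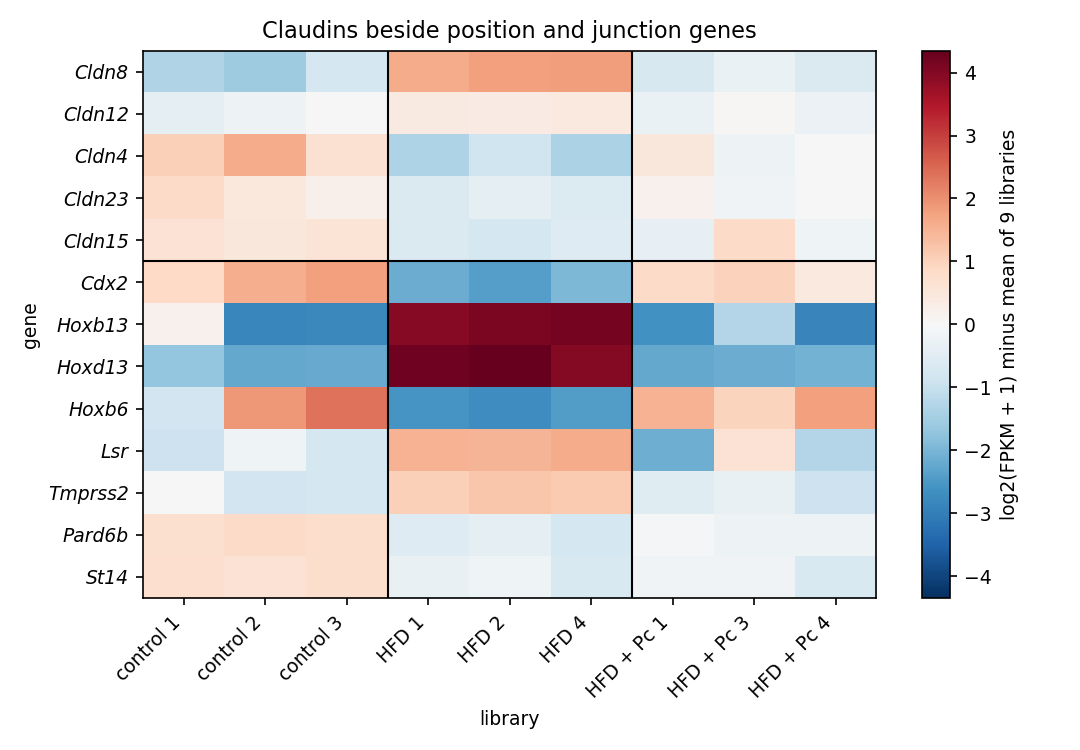
Level of each gene (rows) in each library (columns) as log2(FPKM + 1) minus its mean over 9 libraries; HFD + Pc is HFD with P. cinnamivorans, and the horizontal line separates claudins from the other genes. In the HFD libraries Cldn8 and Cldn12 are on the side of Hoxb13, Hoxd13, Lsr and Tmprss2, and Cldn4, Cldn23 and Cldn15 on the side of Cdx2 and Hoxb6. The genes shown were all called in HFD minus control, so that a side in the HFD libraries follows from this choice. Cldn3, also called, and the claudins and Hox genes that were not called are not shown.

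Cdx factors are known activators of the Cldn2 promoter in intestinal cells, and AP-1 factors act at many epithelial promoters. In these libraries Cdx2 and Cldn2 went in opposite directions between control and HFD. Cdx2 averaged 112 FPKM in control and 8.10 in HFD, and Cldn2 18.4 and 32.7. Cldn15 went the way of Cdx2, at 47.9 and 20.2 FPKM. A link of Cdx2 with either pore was not tested. The stretch of 250 bases before the start site is shown for both pores and for Cldn4, the claudins in which a match to either motif below was found. Sequences are from RefSeq on GRCm38.p6, an older build than the GRCm39 of the deposited table, 5′ to 3′ on the gene's strand, with matches in capitals to the Cdx core TTTAT and to the AP-1 motif TGANTCA, both searched on both strands. The motifs were picked after the sequences and levels had been seen.
Cldn2 (chrX:139800558-139800807, plus strand): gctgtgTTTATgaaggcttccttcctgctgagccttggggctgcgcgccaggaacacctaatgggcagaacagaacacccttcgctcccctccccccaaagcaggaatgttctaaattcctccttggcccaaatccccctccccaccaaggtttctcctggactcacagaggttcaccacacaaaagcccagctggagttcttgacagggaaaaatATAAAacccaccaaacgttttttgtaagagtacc
Cldn15 (chr5:136967619-136967868, plus strand): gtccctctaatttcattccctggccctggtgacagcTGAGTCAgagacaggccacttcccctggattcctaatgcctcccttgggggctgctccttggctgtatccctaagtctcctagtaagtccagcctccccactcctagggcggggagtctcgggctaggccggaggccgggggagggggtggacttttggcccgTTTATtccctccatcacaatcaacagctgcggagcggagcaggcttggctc
Cldn4 (chr5:134946935-134947184, minus strand): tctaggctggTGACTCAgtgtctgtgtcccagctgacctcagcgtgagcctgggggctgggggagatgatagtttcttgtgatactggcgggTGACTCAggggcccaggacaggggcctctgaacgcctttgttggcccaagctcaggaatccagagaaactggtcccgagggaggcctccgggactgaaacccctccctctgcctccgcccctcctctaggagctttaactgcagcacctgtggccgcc

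Sequences were found for 8 of the 10 claudins, in 11 windows, and none for Cldn8 or Cldn23. The Cdx core occurred in 2 of the 8, Cldn2 and Cldn15, and in 37.3% of 32851 promoters of the same length. The AP-1 motif occurred in 2 of the 8, Cldn4 and Cldn15, and in 6.75% of promoters. Claudins were counted by gene, over all windows of a gene, whereas both percentages count single windows, so they are not in the same unit. The Cldn2 match at -34 from the start lies within the letters TATAAAA, which are also those of a TATA box. It therefore cannot be read as a Cdx site by its letters alone. A match describes letters in this window and is not evidence of binding.

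The genes most like each called claudin were taken as the 3 with the highest Pearson correlation of log2(FPKM + 1) over the 9 libraries, among 7744 other genes with a mean of at least 5 FPKM. They were Il1rn (0.9955), Scml4 and Myo5c for Cldn8, and Slc9a3r1 (0.979), Engase and Slc2a1 for Cldn4. For Cldn3 they were Btbd6 (0.9865), Mt2 and Sh2b1, for Cldn23 Ufsp1 (0.975), Ccdc9b and Jun, and for Cldn12 Igkv3-10 (0.9915), Ctsc and Slc31a1. For Cldn15 they were Alb (0.973), 1810055G02Rik and Smpd1. Alb, the serum albumin gene, averaged 59.2 FPKM in control, 3.04 in HFD and 87.9 with the bacterium. All libraries of a group share its level in these correlations, which are a description of likeness without a test.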

How the data were processed

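RNA of mouse colon was sequenced in 9 libraries of 3 groups. The authors deposited 1 table of FPKM values, named as such per the file headers; the submitters' processing notes name HISAT2 2.0.5 and GRCm39. For the counter, its strand setting and the annotation, the sources used here name none. Of the claudins, Cldn3 shares exon sequence with another gene in GENCODE M21, Wbscr25 on the opposite strand, which averaged 0.125 FPKM. Symbols came from a reference table of gene identifiers and names (52093 of 54491 identifiers matched).

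Groups were taken from the treatment labels and replicate numbers from the titles. limma 3.58.1 in R 4.3.3 was run on log2(FPKM + 1) with a trend, all 9 libraries in 1 fit and no covariate, over 17907 genes, with Benjamini-Hochberg adjusted p-values per comparison (threshold 0.05). The fit was tested on simulated data. Alternatives were another pseudocount (0.1), filter, scaling or centring, no trend, the 2 compared groups alone, a replicate block and leaving out each library. Named genes were all 10 claudins, up to 3 called members of each partner list with the largest difference, and 3 like genes per claudin called in HFD against control. Tjp1, Ocln, Cldn16, Cldn18, Epcam, Cdx2 and Hoxb13 were added after their values were seen. Other genes of the cell type and Hox lists, such as Vil1, Ezr, Grhl2, Alpi, Anpep, Rbp2, Hoxa10 and Hoxa11, were likewise named with their values known. Members and lists were chosen with earlier results of these data known.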

Additional observations from a re-analysis of the deposited data

How the results depend on the processing

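Cldn8 and Cldn4 in HFD against control, and Cldn8 in HFD with the bacterium against HFD, kept their sign and their call under all 21 alternatives, with log2 differences of 2.78 to 3.51, -2.51 to -1.73 and -2.48 to -2.19. No called claudin changed sign under any alternative. Total depth is unknown, so the precision of low genes such as Cldn1 cannot be given.

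Of the 10 claudins, 6, 3 and 0 were called in HFD minus control, HFD with the bacterium minus HFD and HFD with the bacterium minus control. Leaving out 1 library at a time gave 3 to 7, 1 to 4 and 0 to 2. Centring on pan-epithelial genes without Cdx2 gave 3 in the first and 1 in the last (Cldn8), and centring with Cdx2 also gave 1 in the last. Using the 2 compared groups alone gave 5 in the second. Leaving out control replicate 1 and replicate 3 of the bacterium group together, chosen after the data were seen, gave 6 in the second and 3 in the last; in the second Cldn2 was then called as lower and Cldn15 and Cldn23 as higher with the bacterium. Without a filter on low values 5 and 2 were called in the first and second comparison, since Cldn3 and Cldn12 were each lost.

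Over all genes, 3535, 2174 and 198 were called in these comparisons. Leaving out 1 library gave 1857 to 4521, 1161 to 3588 and 0 to 1186. In HFD minus control, centring on pan-epithelial genes gave 8028. In HFD with the bacterium minus HFD, centring without Cdx2 gave 1398 and leaving out both libraries 4668. In HFD with the bacterium minus control the count was 15 without a filter, 309 with a stricter filter, 46 with quantile normalization, 22 with libraries rescaled to the same sum, 384 after removal of mitochondrial and immunoglobulin genes, 385 after centring, 2 with the 2 groups alone and 2153 without both libraries. Scaling moved the median of all genes: in HFD minus control to 0.20 with rescaling, 0.17 after removal of mitochondrial and immunoglobulin genes, 0.57 with centring and 0.33 with centring without Cdx2; in HFD with the bacterium minus HFD to -0.17 with rescaling and -0.205 with centring; and in HFD with the bacterium minus control to 0.14, 0.37 and 0.34 with removal and both centrings. The share of calls that were higher in HFD minus control went from 53.8% to 78.8%, 76.8%, 94.8% and 85.5%. In HFD with the bacterium minus HFD it went from 37.4% to 23.9% with rescaling and 22.4% with centring, and in HFD with the bacterium minus control from 23.7% to 45.5%, 77.1%, 92.2% and 89.3%. With centring on pan-epithelial genes, Cldn1 and Cldn2 were called as higher in HFD, and Cldn3, Cldn15 and Cldn23 were not called (adjusted p 0.28, 0.09 and 0.17). With rescaling Cldn15 was not called (0.059). The causes were not tested.

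Groups share some replicate numbers, but the numbers were not taken to pair libraries, since no more than 2 pairs per comparison exist and deviations of same-numbered libraries did not go together in all of them: correlations of their deviations from the group means were -0.071 and -0.102 for HFD and control, -0.156 and -0.014 for HFD with and without the bacterium, and 0.187 and 0.143 for the bacterium group and control. With a replicate block 1985, 1288 and 0 genes were called, and 4, 3 and 0 claudins; Cldn3 and Cldn15 were not called in HFD minus control (adjusted p 0.075 and 0.068).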
